A study of Mus musculus with 1 sample.

Results

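The trypsin system of the exocrine pancreas was examined through 8 trypsinogen genes (Prss1, Prss2, Prss3, Try4, Try5, Try10, 2210010C04Rik and Gm5771) and Spink1, which encodes the trypsin inhibitor made by the same cells. The members were chosen by gene symbol, and all 9 were among the 32285 genes listed for the library. The library was a single-cell RNA-seq preparation of pancreata from 5 to 6 Scap f/f mice, 2 weeks old and with both sexes equally represented, which were pooled before droplet capture. These mice carry a floxed Scap gene without Cre recombinase, so Scap, the escort protein of the SREBP lipid regulators, was intact. The library built from mice lacking pancreatic Scap was not analysed here. The tissue was dissociated with collagenase P in the presence of soybean trypsin inhibitor, and dead cells were removed before capture. Because there was 1 pooled library, no value below has a replicate. The intervals given are 95% intervals for counting error only, no difference between cell groups was tested, and differences between mice cannot be seen.

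Trypsinogens are inactive precursors stored in zymogen granules of acinar cells. In the gut, enteropeptidase cuts each one after a lysine that follows a run of aspartates and so releases active trypsin, which then activates the other digestive zymogens. Trypsin that forms too early, inside the pancreas, can damage the gland, and SPINK1 blocks it by occupying the active site. Inherited changes of the human cationic trypsinogen gene and of SPINK1 predispose to pancreatitis.

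In the GRCm38 annotation (GENCODE M21), the 8 trypsinogen genes lay on chromosome 6 between positions 41030268 and 41525079, a span of 495 kb. 2210010C04Rik (41030268 to 41035509, minus strand) was separated from the rest by 267 kb. The other 7 genes followed within 223 kb, in the order Try4 (41302269 to 41305532, plus), Try5 (41311233 to 41316841, minus), Try10 (41354105 to 41357914, plus), Prss3 (41373814 to 41377678, minus), Gm5771 (41392356 to 41397230, plus), Prss1 (41458932 to 41463786, plus) and Prss2 (41521787 to 41525079, plus). A further trypsinogen-like gene, Gm10334, lay between Gm5771 and Prss1 and is no member here. Each trypsinogen gene had 5 exons, all of them partly or wholly coding, and a coding sequence of 735 to 741 bases.

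The start of each coding sequence is printed here from the start codon through the activation site, because this stretch holds both what the trypsinogens share and the letters in which they differ at the step that SPINK1 guards against. Sequences are those of GENCODE M21 transcripts, written 5′ to 3′, and the capitals mark the codons for aspartate followed by the codon for lysine after which enteropeptidase cuts.
Prss1: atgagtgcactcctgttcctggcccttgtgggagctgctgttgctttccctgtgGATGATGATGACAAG
Prss2: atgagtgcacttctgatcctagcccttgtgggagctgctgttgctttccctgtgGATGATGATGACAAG
Prss3: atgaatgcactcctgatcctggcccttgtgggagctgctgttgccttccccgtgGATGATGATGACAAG
Try4: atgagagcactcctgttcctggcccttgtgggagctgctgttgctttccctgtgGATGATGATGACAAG
Try5: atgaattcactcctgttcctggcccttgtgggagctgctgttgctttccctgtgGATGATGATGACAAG
Try10: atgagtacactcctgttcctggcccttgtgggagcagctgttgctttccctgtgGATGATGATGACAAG
2210010C04Rik: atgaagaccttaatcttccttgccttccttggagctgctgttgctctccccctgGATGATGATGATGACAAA
Gm5771: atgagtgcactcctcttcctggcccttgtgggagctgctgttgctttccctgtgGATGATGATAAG
Prss1, Prss2, Prss3, Try4, Try5 and Try10 had the same 15 letters at this site, with 4 aspartate codons ahead of the lysine codon. 2210010C04Rik had 5 aspartate codons. Gm5771 had 3 aspartate codons, so that its site was 1 codon shorter than that of its closest relative among the members, Prss1. In every gene the run of aspartate codons began at codon 19.

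These genes resemble each other closely enough to affect counting. Over the 28 pairs of trypsinogens, coding sequences were 74.5% to 97.6% identical, with a median of 91.3%. Prss1 and Gm5771 formed the most alike pair (97.6%), followed by Try4 and Try5 (97.4%), whereas 2210010C04Rik was 75.8% or less identical to each of the others. The sequencing reads came from the 3′ end of transcripts, and a read that fits more than 1 gene is left out by the counting software. Reads were sequenced at 150 bases. Of the 150-base windows in the last 500 bases of each transcript, 40.2% for Prss3, 13.7% for Gm5771, 11.1% each for Try4 and Try5 and 6.84% for Prss1 occurred letter for letter in the transcript of another gene, so the levels of these 5 genes are uncertain. For Prss2, 2210010C04Rik, Try10 and Spink1 this share was 0%. A read shortened to 90 bases would fit another gene more often, in 55.0% of windows for Prss3, 41.1% for Gm5771, 35.3% for Prss1, 27.7% each for Try4 and Try5 and 14.4% for Try10. For Try10 that gene was Gm5409 alone, which was not among the genes listed for the library. The part of left-out reads in the order of levels was not tested.

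The unit throughout is the unique molecular identifier (UMI), a tag that counts each captured RNA molecule once. Of 11789 deposited barcodes holding 51540177 UMIs (500 to 174899 per barcode), 10947 had more than 800 and fewer than 100000 UMIs and less than 15% mitochondrial UMIs, with a median of 2650 UMIs. An acinar gate was drawn at 10% or more of a cell's UMIs from 8 other digestive genes: Ctrb1, Pnliprp1, Clps, Reg1, Cela2a, Cpa1, Cela3b and Cpb1. It held 1348 cells with a median of 4410 UMIs. Cel, the bile salt-activated lipase of acinar cells, was found in 99.9% of them, and the acinar transcription factors Ptf1a and Rbpjl stood at 57.5 and 207 CPM (UMIs per 1000000 UMIs of the group), against 0.532 and 7.09 in the 1745 cells outside the gate that carried Ptprc, the CD45 gene of leukocytes. The Ptprc cells (median 2094 UMIs) served as the background, since leukocytes do not make digestive enzymes. They also held 1649 CPM of the fibroblast genes Pdgfra, Dcn and Lum, which stood at 459 in the acinar gate. The boundary of the gate was not sharp for the trypsinogens: the 63 cells just inside (10 to 12% gate-gene UMIs) held 2.62% trypsinogen UMIs, and the 59 cells just outside (8 to 10%) held 2.10%. Spink1 stood at 7.72 and 8.29 UMIs per 100 trypsinogen UMIs in these cells.

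All 9 members were abundant in the acinar gate and present at a lower level in the other cell groups. Together the 8 trypsinogens made up 7.84% (7.82 to 7.85) of all UMIs in the acinar gate, 1148419 molecules, and 0.214% in the Ptprc cells, a 36.7-fold difference (36.0 to 37.3). Spink1 made up 0.491% and was 34.8-fold higher (32.4 to 37.3). Every member passed the 2-fold mark in this comparison, as did 7.14% of the 10192 genes with at least 10 CPM in either group. None of the members and 49.3% of these genes were 2-fold lower. The median fold of these genes was 0.505, on a scale where the gate genes took 32.3% of acinar-gate UMIs and 0.722% of those in Ptprc cells. The members' direction was that of the other enzyme genes, and the gate was itself set on genes made by the same cells. Of all trypsinogen UMIs in the kept barcodes, 94.0% were in the acinar gate, and the share for Spink1 was also 94.0%.

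Prss2, an anionic trypsinogen, had the highest level in the acinar gate, at 24712 CPM (24632 to 24793). 2210010C04Rik followed at 21383 (21309 to 21458). Try4 (9817) and Try5 (9796) came next at nearly the same level, and their intervals overlapped. Gm5771 stood at 3562, Prss3 at 3493, Prss1 at 3070 and Try10 at 2544, each outside the interval of its neighbours. These intervals do not cover reads left out because they fit more than 1 gene, so the order of Gm5771, Prss3 and Prss1 is uncertain. In the counts as they stand, the gene named Prss1 was the second lowest of the 8, and Prss2 stood at 8.05 times its level. Spink1 stood at 4912 (4877 to 4948), between Try5 and Gm5771. A 3′ tag is counted once per molecule whatever the transcript's length, so these levels were not divided by length.

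**Figure D1:**
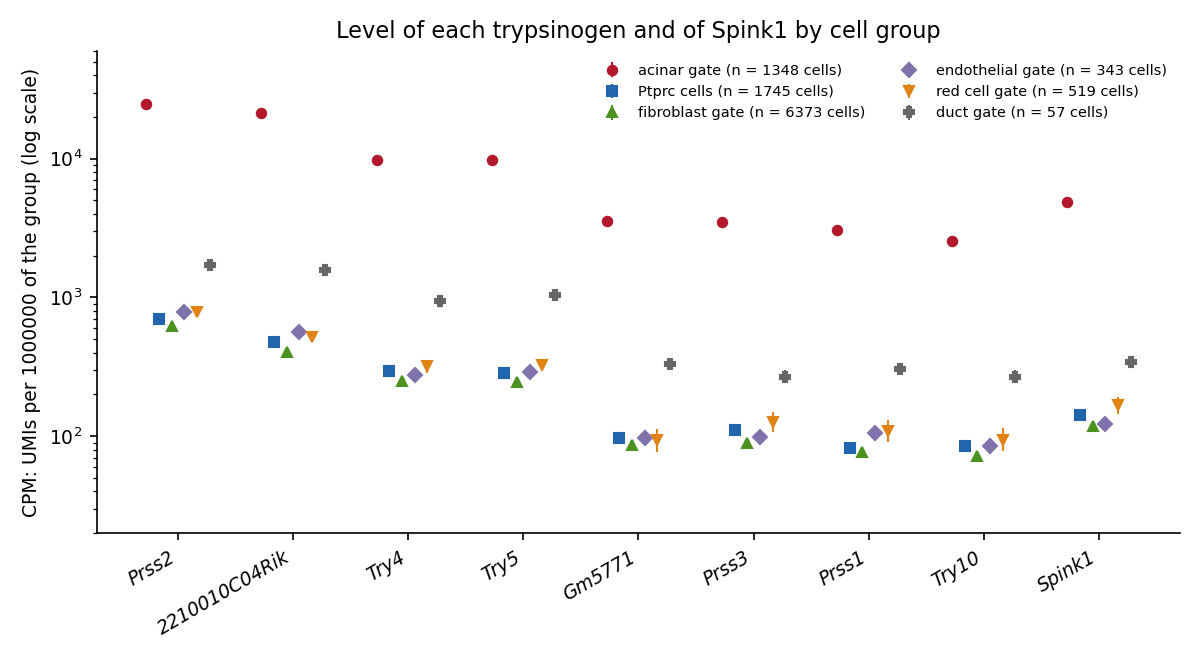
Level of each member in CPM (UMIs per 1000000 UMIs of the group, vertical log axis) in 6 cell groups of the library, with the number of cells in the legend and bars for the 95% counting interval, which are often smaller than the symbols. The acinar gate lies far above all other groups for every gene, from 2544 for Try10 to 24712 for Prss2, and the duct gate lies between.

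The order of the genes outside the acinar gate was close to that inside it. In the Ptprc cells Prss2 stood at 703 CPM, 2210010C04Rik at 478, Try4 at 296, Try5 at 286, Spink1 at 141, Prss3 at 110, Gm5771 at 97.2, Try10 at 85.5 and Prss1 at 81.7. Levels in the fibroblast gate (6373 cells with at least 1% of UMIs from Col1a1, Col1a2 and Col3a1) were lower for each member, 618 for Prss2 and 119 for Spink1. The endothelial gate held 343 cells with at least 3 UMIs from Pecam1, Cdh5, Kdr and Egfl7 and under 1% collagen UMIs. The red cell gate held 519 cells with at least 10% of UMIs from Hba-a1, Hba-a2, Hbb-bs and Hbb-bt. These gates held 0.229% and 0.238% trypsinogen UMIs, against 0.184% in the fibroblast gate. All groups lay below the acinar gate's 10% limit, and fibroblast, endothelial and duct gates held no Ptprc UMI. The red cell gate shared 75 cells with the fibroblast gate, 32 with the Ptprc cells and 8 with the endothelial gate. A trypsinogen UMI was found in 97.0% of the Ptprc cells and 96.8% of the fibroblast gate, at 6.91 and 6.68 UMIs per cell. Such shares depend on depth. With each cell thinned to 800 UMIs, Spink1 was found in 95.6% of acinar-gate cells and 12.3% of Ptprc cells (99.7% and 29.9% before thinning), and Try10 in 79.4% and 8.14% (97.4% and 21.8% before). No cell had to be left out for this. Leukocytes and red cells are not known to make trypsinogens, so a trypsinogen UMI at this level was treated as background and was not read as expression. The source of these UMIs was not tested.

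The make-up of the trypsinogens in these groups was not an exact copy of that in the acinar gate. 2210010C04Rik was 27.3% (27.2 to 27.4) of trypsinogen UMIs in the acinar gate, but 22.4% (21.6 to 23.1) in the Ptprc cells, 21.9% in the fibroblast gate, 21.6% in the red cell gate and 24.4% in the endothelial gate. Accordingly its fold over the Ptprc cells, 44.7 (43.0 to 46.4), was the highest of the members, and Try10 had the lowest at 29.8 (27.2 to 32.6). Within the acinar gate 2210010C04Rik held 26.2% of trypsinogen UMIs in cells with under 3000 UMIs and 27.6% in cells with 10000 or more. In the shallow cells with at least 0.5% Malat1, a nuclear RNA, among other UMIs, it held 24.4% (23.6 to 25.1), the same as the endothelial gate. Prss2 showed the opposite lean, with 31.5% in the acinar gate and 32.9% to 34.1% in these 4 groups. The proportion of Spink1 was 6.27 UMIs per 100 trypsinogen UMIs (6.22 to 6.32) in the acinar gate, 6.61 in the Ptprc cells (interval from 6.15), 6.46 in the fibroblast gate (from 6.21) and 7.01 in the red cell gate (from 6.02), and these 3 intervals took in the pooled acinar value. That overlap depends on pooling, since cells of 10000 or more UMIs supplied 10968241 of the 14652335 acinar-gate UMIs. Acinar-gate cells of under 3000 UMIs stood at 9.75 and those of 10000 or more at 5.46, both outside these 3 intervals. In the endothelial gate the proportion was 5.35 (4.77 to 5.98), an interval below the pooled acinar value. Against the 8 gate genes, trypsinogens were relatively richer in the background, at 29.6 (29.0 to 30.2) per 100 gate-gene UMIs in the Ptprc cells and 24.3 in the acinar gate. The acinar gate was selected on a high share of these same genes, and the part of the selection in this difference was not tested. In the 59 cells just outside the gate the ratio was 23.1 (22.4 to 23.7). Within the gate the ratio was 24.3, 24.4 and 19.9 in cells with 10 to 30%, 30 to 50% and at least 50% gate-gene UMIs.

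**Figure D2:**
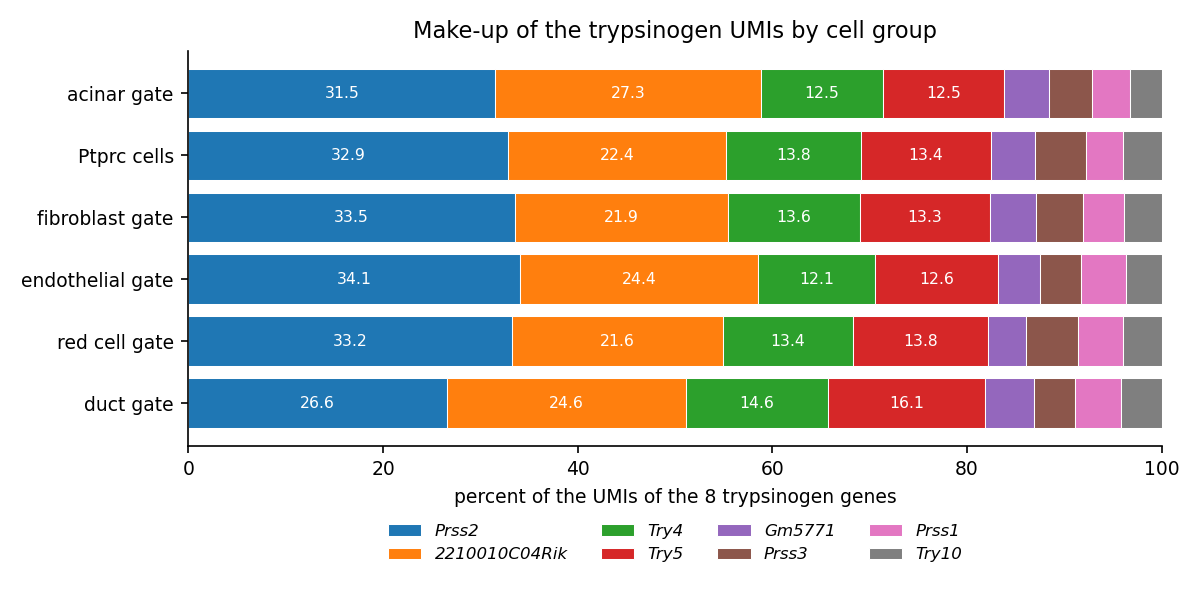
Each bar divides the UMIs of the 8 trypsinogen genes in 1 cell group among the genes (horizontal axis, percent). The orange part, 2210010C04Rik, is 27.3% in the acinar gate and 21.6% to 24.6% in the other 5 groups drawn.

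The fold of the members over the Ptprc cells ran from below the range of the gate genes into its lower part, which is no test because the gate was drawn on the latter. The gate genes ran from 33.4-fold for the colipase gene Clps to 69.3-fold for the elastase gene Cela3b, with a sum 44.7-fold higher. Try10 (29.8-fold), Prss3 (31.7-fold) and Try4 (33.2-fold) lay below the lowest of them. Of the 9 members, 2210010C04Rik alone exceeded Ctrb1, the chymotrypsinogen B1 gene (41.3-fold).

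**Figure D3:**
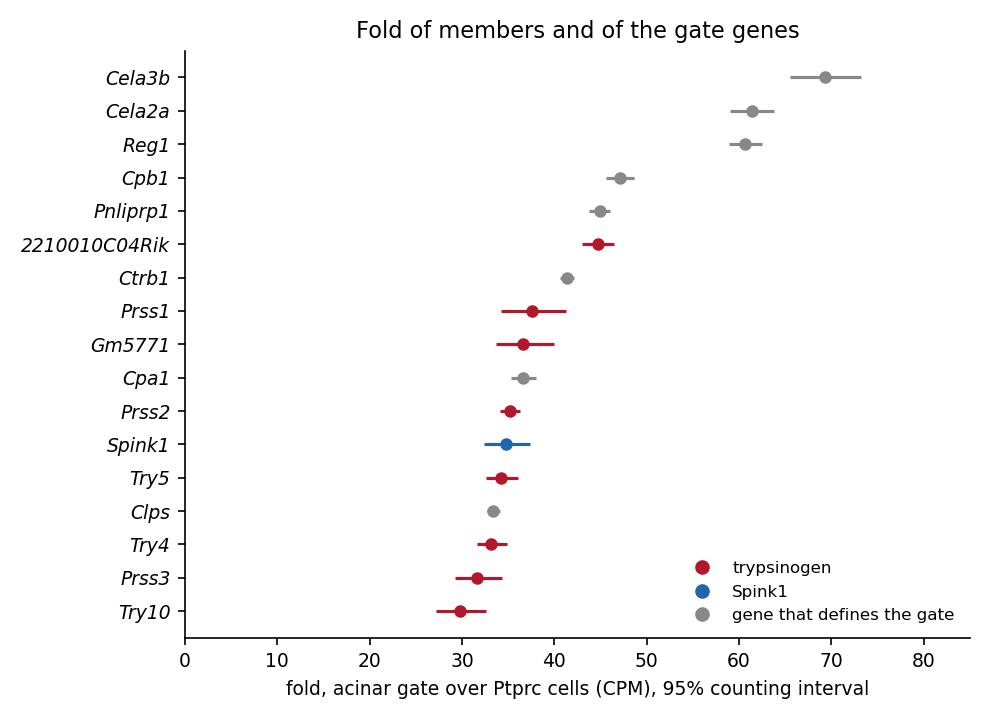
Ratio of the level in the acinar gate to the level in Ptprc cells (horizontal axis) for the 9 members and the 8 genes that define the gate, with 95% counting intervals. Members run from 29.8 (Try10) to 44.7 (2210010C04Rik), and Cela3b, Cela2a and Reg1 lie above all of them.

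The duct gate (57 cells with an Epcam UMI and at least 3 UMIs from Krt19, Krt7, Sox9, Cftr and Muc1) held 0.645% trypsinogen UMIs, more than the Ptprc cells and the fibroblast, endothelial and red cell gates. The duct gate shared 15 cells with the fibroblast gate and 4 with the endothelial gate. Its trypsinogen level rested on few cells. The 5 cells with the most trypsinogen held 70.6% of the 8197 trypsinogen UMIs, and the median cell stood at 0.198%, close to the median of 0.191% in the Ptprc cells. The proportion of Spink1 was 5.33 per 100 trypsinogen UMIs (4.83 to 5.87). In 10 cells with at least 10 UMIs of an islet hormone gene, trypsinogens made up 0.220%, between the values of the fibroblast and red cell gates.

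Within the acinar gate the balance of inhibitor and zymogen shifted with the depth of the cell. Cells of 800 to 1500 UMIs held 10.4 Spink1 UMIs per 100 trypsinogen UMIs (9.45 to 11.3, 87 cells). The value was 9.70 at 1500 to 3000 UMIs, 9.01 at 3000 to 5000, 8.03 at 5000 to 10000, 6.64 at 10000 to 20000, 5.70 at 20000 to 40000 and 4.78 (4.71 to 4.85, 82 cells) at 40000 to 100000. The proportion was lower at each step, 2.17 times from the first bin to the last, and each interval from 1500 UMIs upward lay apart from the next. With the study's own upper limit of 10000 UMIs per cell, which leaves out the 3 deepest bins, the acinar gate as a whole stood at 8.73 rather than 6.27. Medians of single cells followed the same course, from 9.68 in the shallowest bin to 4.66 in the deepest.

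Between cells of under 3000 and of 10000 or more UMIs, Spink1 shifted more than the trypsinogens. Over the bins both moved. From the first bin to the last, Spink1 went from 0.522% to 0.399% of all UMIs, with a peak of 0.722% at 3000 to 5000. The trypsinogens went from 5.04% to 8.36%. To set the gate genes and the members aside, levels were taken per UMI of all other genes. On that scale Spink1 in cells of 10000 or more UMIs was 0.656 of its level in cells of under 3000, while the trypsinogens ran from 0.965 for Prss3 to 1.27 for Try4. The median of the 10129 genes compared was 1.17. No member passed 2-fold in either direction, against 18.9% of genes higher and 12.5% lower in the deep cells. Per 100 trypsinogen UMIs, Spink1 had the lowest ratio of deep to shallow cells (0.560, 0.545 to 0.575) among the members, the gate genes, Zg16 and Tff2. Clps followed at 0.699 and Ctrb1 at 0.753, whereas Cela2a, an elastase gene, stood at 1.38 and Reg1 at 1.25. Prss3 was the trypsinogen with the lowest ratio (0.823), and Try4 had the highest (1.08).

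Cells poor in the nuclear RNA Malat1 are often damaged or emptied of their nucleus, so the acinar gate was also divided at 0.5% Malat1 among other UMIs. Where Malat1 was under 0.5% (738 cells), Spink1 per 100 trypsinogen UMIs was 9.56, 8.02 and 5.40 in cells of under 3000, 3000 to 10000 and 10000 or more UMIs. Where it was 0.5% or more (610 cells), the values were 10.4, 9.30 and 5.49. In the narrower bins the cells poor in Malat1 had a lower value at each step, from 10.3 to 4.87. In those richer in Malat1 the value did not fall over the first 3 bins (10.4, 10.5 and 10.6) and was then 8.70, 6.80, 5.77 and 4.72. Levels of the members per other UMIs were 0.671 to 0.772 times as high in the cells richer in Malat1, and none passed 2-fold (3.67% of 9580 genes were 2-fold higher and 0.313% lower). RNA of other cells also moved with depth: in acinar-gate cells of under 3000 UMIs, hemoglobin genes stood at 19569 CPM and the 3 fibroblast genes at 1231, against 1151 and 283 in cells of 10000 or more. All 6 immune genes were detected in each depth class, with a sum of 335 in the shallow and 47.7 in the deep cells. The proportion of Spink1 in the background groups, 5.35 to 7.01, was below that of the shallow acinar-gate cells. The part of foreign RNA in the shift was not tested.

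**Figure D4:**
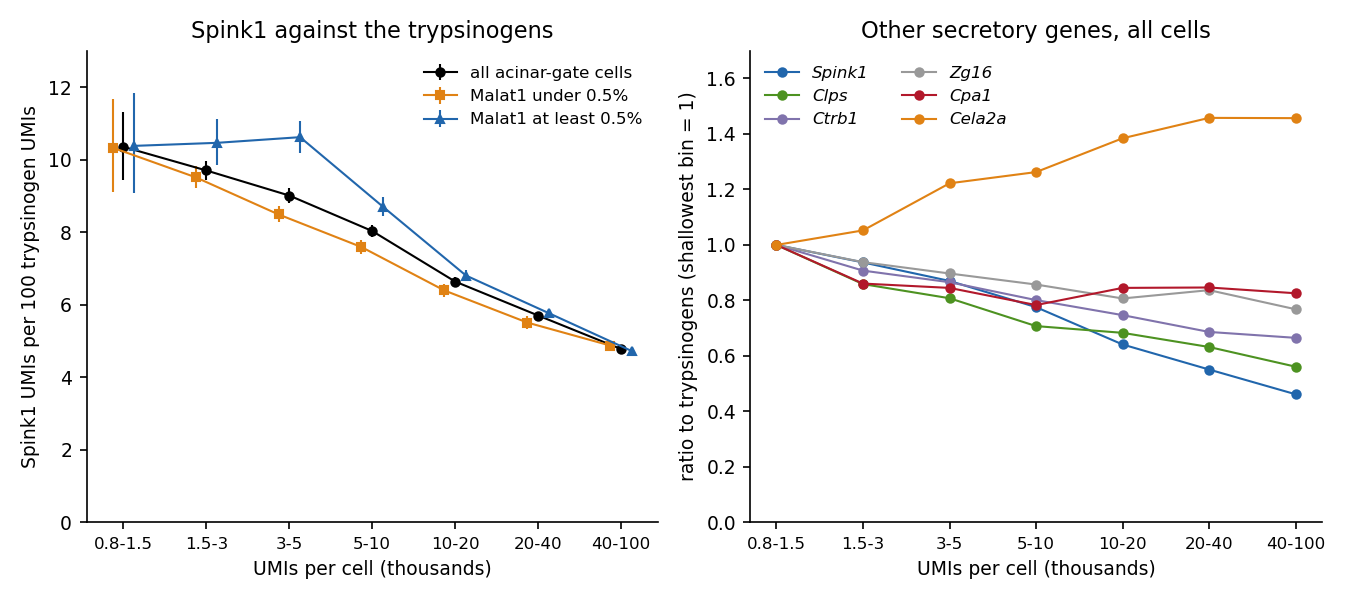
Left, Spink1 UMIs per 100 trypsinogen UMIs (vertical axis) in 7 bins of UMIs per cell (horizontal axis, in units of 1000) for all acinar-gate cells and for both Malat1 classes, with 95% counting intervals. Right, the ratio of Spink1 and 5 other secretory genes to the trypsinogens relative to the shallowest bin: Spink1 ends lowest and Cela2a highest.

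All members were higher in cells with a larger share of gate genes. Per other UMIs, cells with 30 to 50% of UMIs from the gate genes (729 cells) held 2.00 times (Try5) to 2.73 times (Prss3) the level of cells with 10 to 30% (560 cells). Of the 9 members, 8 reached 2-fold and Try5 fell just short, against 0.863% of 9971 genes. None was 2-fold lower, as 15.7% of these genes were. The gate genes, which define these classes and count among the genes at 2-fold, ran from 2.13-fold to 2.39-fold. The members are made by the same cells, and the denominator leaves out gate genes and members. Their rise is therefore largely built into the classes and is no test. The share of trypsinogens in single acinar-gate cells ran from 2.43% at the 5th percentile through a median of 7.51% to 12.8% at the 95th percentile.

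Across the 1348 acinar-gate cells, on a scale of log(1 + UMIs per 10000), every pair of members was positively correlated. This is a description over cells of 1 library that share depth and the common denominator. Pearson's r ran from 0.364 (Prss3 with Try10) to 0.698 (Prss2 with 2210010C04Rik) over the 28 trypsinogen pairs, with a median of 0.493. Spink1 correlated with single trypsinogens at 0.388 (Try4) to 0.525 (Prss2). Among 5139 genes with at least 0.2 UMIs per cell, the 5 most like the summed trypsinogens were Ctrb1 (0.773), Reg1 (0.763), Cela2a (0.730), Pnliprp1 (0.711) and Cpa1 (0.697), all of them gate genes. The 5 most like Spink1 were Clps (0.642), Ctrb1 (0.593), Zg16 (0.565), Tff2 (0.551) and Prss2 (0.525). Zg16 encodes a zymogen granule lectin and Tff2 a secreted trefoil peptide. The summed trypsinogens correlated with Spink1 at 0.590, which placed Spink1 at rank 13. These ranks moved with depth. In the 384 cells of 10000 or more UMIs Spink1 stood at rank 4 for the summed trypsinogens (0.689), and Clps stood at rank 11 for Spink1 (0.536), where Ctrb1 (0.646) and Tff2 (0.642) led. The closest trypsinogen pairs also changed in these deep cells. Prss1 with Gm5771 (0.756) and Prss3 with Gm5771 (0.751) lay above Prss2 with 2210010C04Rik (0.684).

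Cells differed in which trypsinogens they held. They came from 5 to 6 pooled mice and cannot be assigned to a mouse, so differences between cells and between mice cannot be told apart. In the 950 acinar-gate cells with at least 200 trypsinogen UMIs, Prss2 was the leading gene in 66.1%, 2210010C04Rik in 29.2%, Try4 in 2.95% and Try5 in 1.79%, and no other trypsinogen led in any of these cells. The share of Try4 among trypsinogen UMIs was 3.56% at the 5th percentile, 11.3% at the median and 23.5% at the 95th percentile, a spread 4.22 times that of counting error alone. Try5 (3.67 times), 2210010C04Rik (3.49 times) and Prss2 (3.29 times) followed. Try10 was lowest on this measure, at 1.71 times, but the measure rises with a gene's counts and does not rank evenness. The ratio of the 95th to the 5th percentile of the share was lowest for Prss2 (2.03) and 2210010C04Rik (2.42). It was 3.80 for Try10 and highest for Prss3 (8.18). This ratio includes counting error, which is larger for scarce genes. In single cells Try5 reached 69.3% and Try4 reached 35.1% of trypsinogen UMIs.

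These shares did not vary independently. Shares sum to the whole, so a negative lean is built in, yet Prss1 and Gm5771 varied together (r = 0.496), as did Prss3 with Gm5771 (0.440) and Prss3 with Prss1 (0.303). Try4 and Prss2 varied most in opposite directions (−0.489), and 2210010C04Rik opposed Prss1 (−0.397) and Try4 (−0.360). Among cells with 1000 or more trypsinogen UMIs (304 cells) the corresponding values were 0.602 for Prss1 with Gm5771, 0.521 for Prss3 with Gm5771 and −0.567 for Try4 with Prss2. Prss3, Gm5771 and Prss1 are neighbours on chromosome 6, with Gm10334 among them, and Prss3 shares 150-base windows with both of the others. Across the 28 pairs, coding identity and the correlation of shares had r = 0.611, whereas coding identity and the correlation of levels had r = 0.0502. The pairs reuse the same genes and are not independent. Every pair of 75.8% identity or less includes 2210010C04Rik, an abundant gene whose share correlated negatively with that of each other trypsinogen. Try4 and Try5, also neighbours with shared windows, had r = −0.137. The parts of shared windows and of abundance in these values were not tested.

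**Figure D5:**
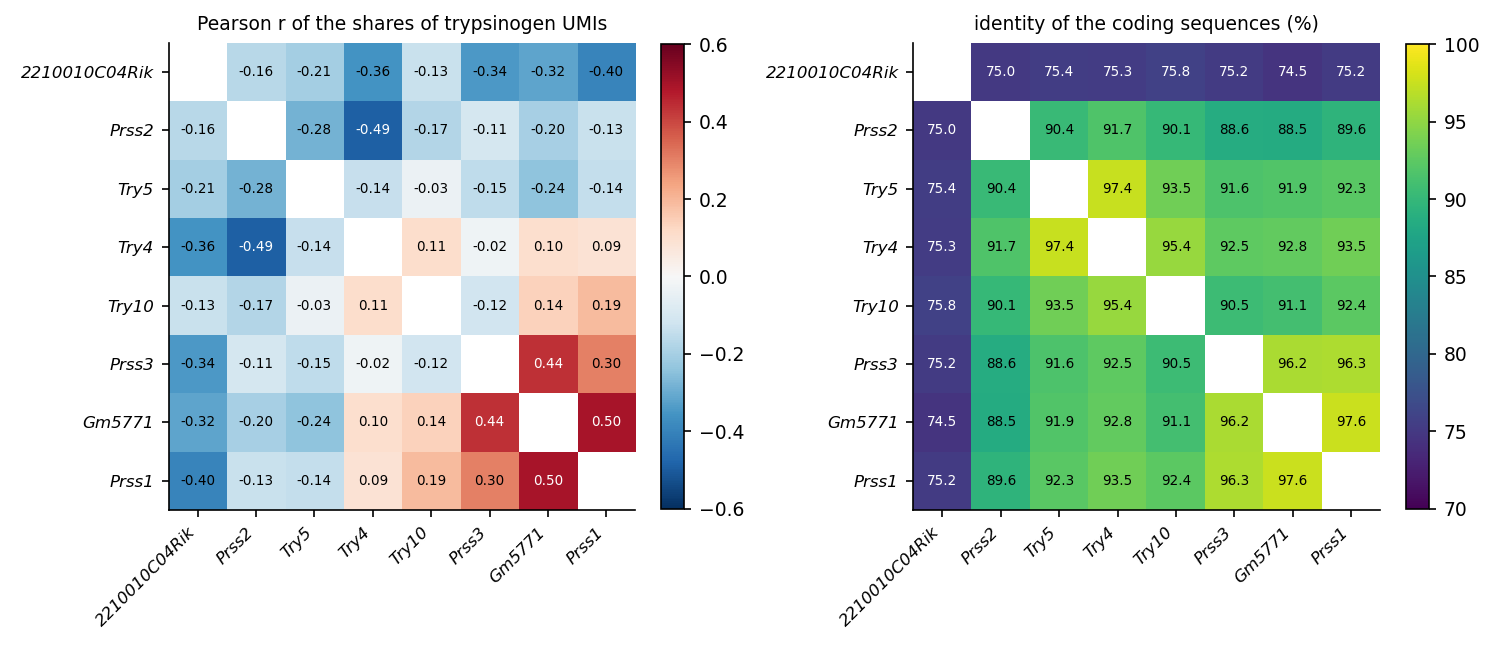
Left, Pearson's r between the shares of trypsinogen UMIs held by 2 genes across the 950 acinar-gate cells with at least 200 trypsinogen UMIs. Right, identity of their coding sequences in percent. Prss3, Gm5771 and Prss1 form a block of positive r at the lower right, where identity is 96.2% to 97.6%.

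Promoters are shown for the 2 leading genes, Prss2 and 2210010C04Rik. Their levels were the most closely correlated pair across all acinar-gate cells, though not in the cells of 10000 or more UMIs. The windows run from 250 bases before to 50 bases after the annotated start (RefSeq, GRCm38.p6), and capitals mark 3 motifs searched on both strands. CACCTG, read as CAGGTG on the other strand, and TTTCCC, read as GGGAAA, are the E-box and TC-box letters bound by the acinar factor complex PTF1, and TATAAA, read as TTTATA, is the TATA box. The Prss2 window is chr6:41521526-41521825 on the plus strand, and that of 2210010C04Rik is chr6:41035460-41035759 on the minus strand.
Prss2: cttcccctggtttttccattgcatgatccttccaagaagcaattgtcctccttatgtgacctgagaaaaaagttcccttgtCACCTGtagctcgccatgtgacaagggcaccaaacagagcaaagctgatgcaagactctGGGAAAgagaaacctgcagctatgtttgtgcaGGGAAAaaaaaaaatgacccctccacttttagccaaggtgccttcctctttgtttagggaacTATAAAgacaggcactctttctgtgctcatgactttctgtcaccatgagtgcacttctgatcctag
2210010C04Rik: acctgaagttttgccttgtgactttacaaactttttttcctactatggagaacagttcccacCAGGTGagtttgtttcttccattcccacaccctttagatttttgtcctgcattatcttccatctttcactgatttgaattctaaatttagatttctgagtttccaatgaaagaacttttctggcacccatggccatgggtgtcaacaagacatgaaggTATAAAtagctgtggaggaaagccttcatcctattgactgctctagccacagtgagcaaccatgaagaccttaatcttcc
Of the 8 trypsinogens, 6 had a promoter in the table (2210010C04Rik, Try4, Prss3, Gm5771, Prss1 and Prss2). CACCTG occurred in 6 of 6, against 20.2% of 32851 promoters of the same length, and TATAAA in 6 of 6, against 13.6%. TTTCCC occurred in 3 of 6 (Gm5771, Prss1 and Prss2), against 25.2%. CACCTG and TTTCCC occurred together in these 3, against 4.86% of promoters. The search took no account of the spacing between them. Prss2 had its E-box letters at position −169 and TC-box letters at −110 and −78. 2210010C04Rik had E-box letters at −188 and no TC-box letters in this window. The matches did not overlap one another. The members are paralogs, so their promoters are related sequences, and a match is a description of letters and not of binding.

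The other genes that govern trypsin formed a fixed list of 18. Chymotrypsin C (Ctrc), which can cleave trypsinogen to inactive fragments, stood at 2303 CPM in the acinar gate and was 37.5-fold higher than in the Ptprc cells, close to the trypsinogens. Ctrl, the chymotrypsin-like protease, stood at 8230 (37.7-fold) and the serpin gene Serpini2 at 768 (57.0-fold). The Kunitz inhibitor genes Spint1 and Spint2 stood at 25.3 (14.2-fold) and 240 (3.74-fold). Of the 8 listed genes with at least 10 CPM in either group, these 5 were 2-fold or more higher and none was 2-fold lower. Over all 10192 genes compared, 7.14% were 2-fold higher and 49.3% were 2-fold lower.

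The lysosomal proteases that act on trypsinogen did not show folds over the Ptprc cells as large as those of the zymogens. The Ptprc cells were chosen as background for digestive enzymes only. Whether they make cathepsins themselves was not tested, so their level is not read as background for these genes. Cathepsin B (Ctsb), which can activate trypsinogen, stood at 99.5 CPM in the acinar gate and 140 in the Ptprc cells. Cathepsin D (Ctsd) stood at 104 and 107, and cathepsin L (Ctsl), which degrades trypsinogen, at 414 and 226. Per UMI of genes other than the gate genes and members, the ratio of acinar gate to Ptprc cells became 1.19 for Ctsb, 1.62 for Ctsd and 3.05 for Ctsl, so that the direction of Ctsb and Ctsd depends on the denominator. Enteropeptidase (Tmprss15), a gene of the gut, and the 5 alpha-1-antitrypsin genes (Serpina1a to Serpina1e) had 0 UMIs in the acinar gate, where 3 counts would be 0.205 CPM, the most that a count of 0 allows. The Serpina1 copies are near-identical, so their reads may have been left out. F2rl1, the trypsin receptor PAR2, had 33 UMIs in the acinar gate (2.25 CPM) and 31 in the Ptprc cells (5.50 CPM). Its ratio of acinar gate to Ptprc cells was 0.410 (0.243 to 0.692), and 0.683 per other UMIs. The ductal genes Cftr and Cldn2 had 51 and 35 UMIs in the acinar gate.

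The trypsinogen-like gene Gm10334 stood at 2090 CPM in the acinar gate and was 27.2-fold higher than in the Ptprc cells. Its coding sequence was 99.1% identical to that of Prss3, and 40.2% of its 150-base windows occurred elsewhere, so the counts of these genes cannot be told apart with certainty. Gm2663 had 124 UMIs in the acinar gate and 1810009J06Rik had 40, against 1 and 0 in the Ptprc cells. Prss58 had 0. Spink1 itself lies on chromosome 18 (43728082 to 43737557, minus strand, 4 exons), away from the trypsinogen cluster, and no window of its 3′ end occurred in another gene.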

How the data were processed

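The authors deposited counts: integer UMIs for each gene in each barcode of 1 library (10x 3′ v3.1 kit, paired reads of 150 bases), made from the reads with Cell Ranger 7.1.0 on the mm10-2020-A reference at default settings, per the labels and the study's methods. No normalized values were used. From these counts, barcodes were kept between 800 and 100000 UMIs when mitochondrial transcripts made up less than 15%, and cell groups were drawn by the marker rules given above. The study's methods mention removal of ambient RNA at a later step. Here the counts were used as deposited, without such a correction, except in 1 alternative.

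Levels are UMIs summed over a group per 1000000 UMIs of that group (CPM). Exact Poisson intervals were given for levels, Clopper-Pearson intervals for shares and exact binomial intervals for ratios, all at 95%. With 1 library no test was run. A gene with 0 UMIs was given an upper limit of 3 counts. Comparisons of genes used a minimum of 10 CPM in either group. Scrublet (scanpy 1.11.5, expected rate 0.08) marked 537 of 10947 cells (4.91%) as doublets, which were kept except in 1 alternative. The marked share was 7.86% in the acinar gate, 10.5% in the Ptprc cells and 12.9% in the red cell gate. It was 3.53% in the fibroblast gate and 2.33% in the endothelial gate. No cell of the duct gate or of the islet hormone group was marked. Python 3.11.15, numpy 2.4.6, scipy 1.17.1, pandas 2.3.3 and Biopython 1.88 were used, and the interval and fold steps were tested on simulated counts. The named genes were the 9 members, the 8 gate genes, 18 trypsin control genes, 5 trypsinogen-like genes (4 of them listed in the library, so Gm5409 has no level) and the 5 genes most correlated with the summed trypsinogens and with Spink1. The members and lists were chosen with earlier results of these data known. Coordinates and transcripts are from GENCODE M21, and the gene identifiers of all members matched those of the library.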

Additional observations from a re-analysis of the deposited data

Results flagged for a closer look

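Barcodes outside the limits also carried trypsinogen, above what a count of 0 would allow. The 752 barcodes of 800 or fewer UMIs held 0.656% trypsinogen UMIs, 85.9% of them had at least 1, and 34 passed the 10% acinar gate. Their Spink1 proportion was 8.11 per 100 trypsinogen UMIs (7.13 to 9.20). The 76 further barcodes with 15% or more mitochondrial UMIs held 1.31% trypsinogen UMIs, more than the duct gate, although 1 of them passed the acinar gate. The 14 barcodes of 100000 or more UMIs held 7.45%, close to the acinar gate, and 12 of them passed it. Spink1 stood there at 4.73 per 100 trypsinogen UMIs (4.61 to 4.86), next to the 4.78 of the deepest bin within the limits.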

How the results depend on the processing

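Under the 13 alternative settings that give a fold, 2 of them chosen after seeing the data (acinar-gate cells of 10000 or more or of under 3000 UMIs only), all 9 members stayed at least 2-fold above the Ptprc cells. The lowest of these 117 folds was 23.6. Subtraction of the Ptprc level, the other alternative, allows no fold. For the summed trypsinogen share (7.84%), the Spink1 proportion (6.27) and the fold (36.7), a value counts as moved when it leaves its narrow counting interval. An upper limit of 10000 UMIs gave 7.70%, 8.73 and 33.5, and a lower limit of 1500 gave 7.86% and 38.9. A mitochondrial limit of 5% gave 7.91% and 37.4, a gate at 5% gave 7.57% and 39.2, a gate at 30% gave 9.12%, 6.17 and 42.7, and a gate without Reg1 gave 7.91% and 34.4. At least 2 Ptprc UMIs gave a fold of 39.5, and removal of marked doublets gave 7.98% and 37.5. With gate genes and members left out of the denominator, the share became 13.2 per 100 other UMIs and the fold 61.2, more than 1.5 times the main values. The mean over cells gave 7.46%, 8.84 and 29.6, subtraction of the Ptprc level gave 7.62%, and cells with at least 0.5% Malat1 gave 7.33%, 6.02 and 34.3. Cells of 10000 or more UMIs gave 7.88% and 5.46, and cells of under 3000 gave 6.96%, 9.75 and 32.6. The cause of these moves was not tested beyond what each setting changes by its construction. No paired analysis was possible because the library is the only one and has no partner. The pooled library limits every statement to counting error within it. Near-identical genes limit the levels of 5 trypsinogens and the trypsinogen sum. Trypsinogen UMIs in the background groups, whose source was not tested, limit what a low level means.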
